A study of Homo sapiens with 4 samples.

Results

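The genes described here are 34 genes of the G1/S transition and of DNA replication, taken as a list of symbols. They were measured in AGS, a long-established cell line from a human gastric adenocarcinoma, with and without exposure to Helicobacter pylori lipopolysaccharide (LPS). A gene entered through the probe sets that the platform annotation assigns to 1 symbol alone, and was represented by its brightest one, averaged over the 4 arrays. All 34 were measured this way, among 19775 genes in all. Untreated cells (2 arrays) had their medium replaced by fresh medium, and LPS-treated cells (2 arrays) by medium with 10 µg/ml of the LPS, and RNA was taken 8 h later in both groups. The labels name no genetic change in either group, and all cells came from 1 cancer line. According to the design text 2 experiments were independent, while the labels do not say which arrays shared one. The p-values therefore measure the spread between these arrays, which may in part be technical.

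A cell that leaves G1 phase accumulates cyclin D and cyclin E, whose kinases phosphorylate the retinoblastoma protein and release the E2F transcription factors. E2F then drives genes of the replication machinery: CDC6 and CDT1 load the MCM helicase onto origins, CDC7, CDC45 and the GINS complex activate it, and polymerases, the PCNA clamp and its RFC loader copy the strands. Gastric epithelium renews itself continuously from dividing progenitor cells, and a tumour line in culture keeps cycling. These transcripts accompany proliferation, which was not itself measured on these arrays.

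Some of the promoter sequences hold an element of the type through which E2F is known to act. The windows below belong to members whose values are given further on. RefSeq promoter sequences (GRCh38.p14) were matched by symbol for 30 of the 34 genes. No entry was matched for CCND1, CCNE2, MCM4 and MCM5. For the 7 genes with several starts the first in the table was taken. The 250 bases before the start were searched on both strands for 4 E2F-type motifs of 8 letters: TTTCGCGC, TTTGGCGC, TTTCCCGC and TTTGCCGC. Copies on opposite strands may overlap and were then counted separately. At least 1 copy was present in 13 of 30 member promoters (43.3%), against 560 of 15384 promoters of measured genes (3.64%). By motif, TTTCCCGC was in 8 member promoters (1.86% of all), TTTGGCGC in 5 (0.683%), TTTCGCGC in 2 (0.657%) and TTTGCCGC in 1 (0.572%). The median GC content of the searched windows was 65% for members and 62.4% for all. Of the 18 copies, 12 began within 100 bases of the start, with a median distance of 57 bases. RFC3, LIG1, MCM7 and MCM3 are shown because they hold a motif and are among the 4 members with the largest test statistic above 0 or the 4 below 0. MCM6 and E2F1 are shown because they hold several copies. Each window runs from 30 bases before its first motif to the base before the start, 5′ to 3′ on the gene's strand, with the motifs in capitals.
RFC3 (chr13:33818064-33818148, plus strand): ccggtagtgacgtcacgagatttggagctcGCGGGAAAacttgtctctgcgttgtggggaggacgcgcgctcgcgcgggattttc
LIG1 (chr19:48170345-48170488, minus strand): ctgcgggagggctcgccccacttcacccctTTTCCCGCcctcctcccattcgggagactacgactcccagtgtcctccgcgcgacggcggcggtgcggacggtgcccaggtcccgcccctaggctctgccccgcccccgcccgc
MCM7 (chr7:100101398-100101614, minus strand): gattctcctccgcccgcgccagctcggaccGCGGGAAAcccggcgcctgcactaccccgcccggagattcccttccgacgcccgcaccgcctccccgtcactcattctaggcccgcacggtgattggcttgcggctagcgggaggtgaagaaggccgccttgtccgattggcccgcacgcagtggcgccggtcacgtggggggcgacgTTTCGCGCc
MCM3 (chr6:52284743-52284946, minus strand): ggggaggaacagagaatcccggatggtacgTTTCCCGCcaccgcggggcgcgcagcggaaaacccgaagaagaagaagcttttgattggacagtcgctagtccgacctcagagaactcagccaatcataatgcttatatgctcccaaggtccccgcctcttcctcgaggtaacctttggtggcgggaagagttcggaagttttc
MCM6 (chr2:135876444-135876625, minus strand): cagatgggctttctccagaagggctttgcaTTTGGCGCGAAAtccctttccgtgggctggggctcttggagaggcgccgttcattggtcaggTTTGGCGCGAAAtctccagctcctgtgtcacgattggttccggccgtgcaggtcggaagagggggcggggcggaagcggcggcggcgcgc
E2F1 (chr20:33686386-33686448, minus strand): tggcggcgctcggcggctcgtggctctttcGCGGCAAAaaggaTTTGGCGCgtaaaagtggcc

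In MCM6 the same 12 capital letters occur at both places, where a copy on each strand overlaps the other. In E2F1, which encodes a member of the factor family itself, the copies begin 33 and 20 bases before the start. A match of letters is a description and shows no binding.

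The 4 arrays agreed closely in general, with correlations of 0.996 to 0.998 across genes, which are not independent replicates. Epithelial markers were bright, with EPCAM at 13.60, 13.52, 13.55 and 13.43 on untreated 1, untreated 2, LPS 1 and LPS 2, and KRT8, KRT18, KRT19 and CDH1 also above the median over genes on every array. That median was 7.21 to 7.30 on the log2 scale. Leukocyte and endothelial markers (4 measured of each) did not lie above it on every array, and of 5 fibroblast markers COL1A1 alone did.

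The G1/S and replication genes were strongly expressed in AGS cells, and their levels with LPS were almost the same as without. All 34 lay above the median over genes on every array, as did 48.3% of all genes. Averaged over the 34 genes, the log2 level was 10.36 and 10.36 on the untreated arrays and 10.37 and 10.32 on the treated arrays. The difference between treated and untreated cells was above 0 for 17 genes and below 0 for 17, with a median of -0.0023 on the log2 scale and a range of -0.21 to 0.15. Over all genes the median was 0.017, and over genes above the median on every array 0.0022.

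None of the 34 genes was called higher or lower (limma, adjusted p = 1 for each), and 0% of all 19775 genes were called at the adjusted threshold of 0.05. At an unadjusted limma p under 0.05 the count was 0 of 34, against 2.83% of all genes, and the smallest p among the members was 0.0808, for RRM2. The treated arrays both lay below both untreated arrays for 6 members, or 17.6%, where 11.7% of all genes and 14.6% of genes above the median on every array did so. They both lay above for 0 members, where 17.9% of all genes and 15.4% of genes above the median on every array did so. The 6 were CDT1, POLE2, RFC3, RRM2, UNG and SLBP. In whole-culture RNA the number of cells that express a gene and the transcript per cell cannot be told apart.

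The intervals bound how large a difference these arrays leave room for on the array's scale. The 95% interval of the treated to untreated ratio lay inside 1.5-fold in either direction for 33 of 34 members, RFC5 excepted, and for 95.5% of all genes. It lay inside 1.25-fold for 22 members (64.7%), against 34.6% of all genes and 36.6% of those above the median on every array. The median absolute difference was 0.04 for members and 0.08 for all genes.

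**Figure D1:**
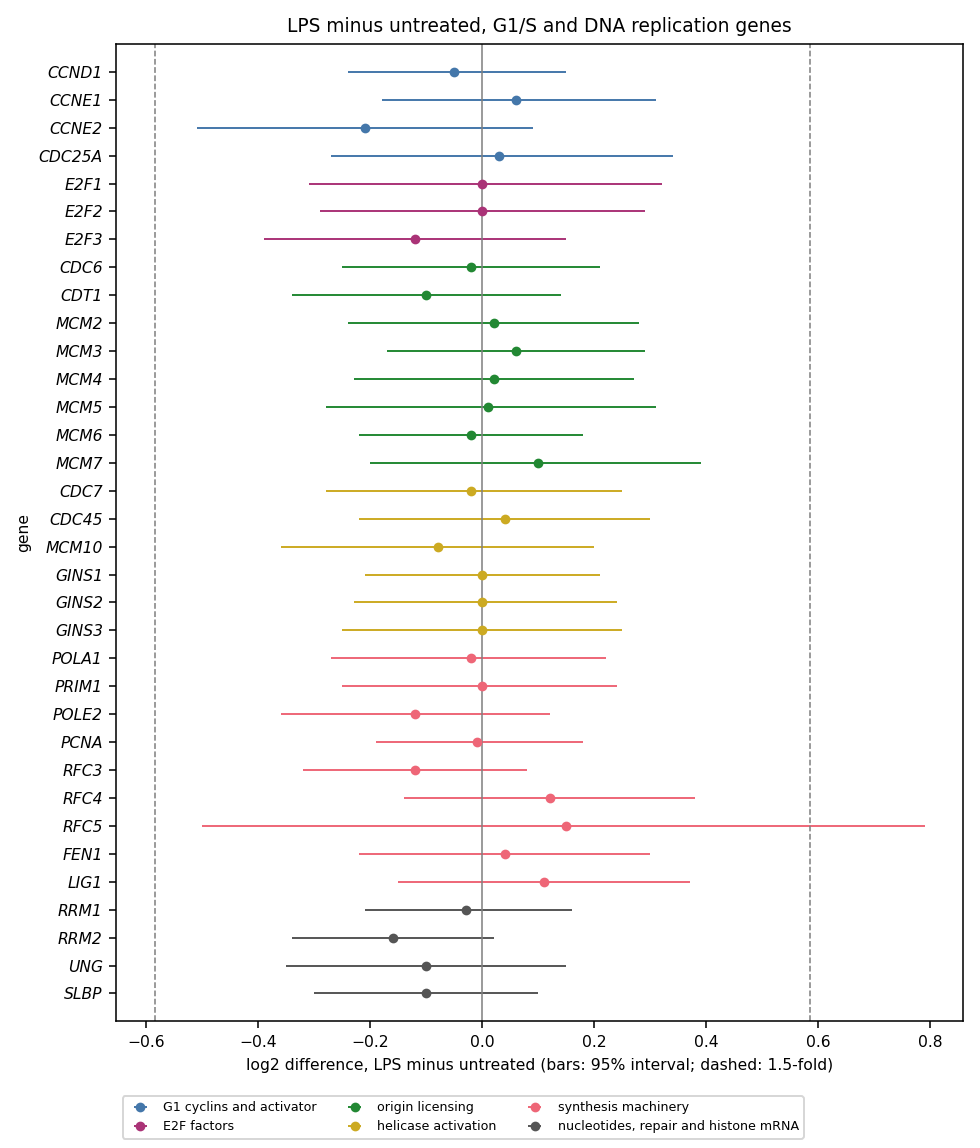
Log2 difference between LPS-treated and untreated cells (horizontal axis) for each of the 34 genes, with points for the estimates, bars for 95% intervals from limma over 2 arrays a group, and dashed lines at 1.5-fold. Every interval includes 0, and only that of RFC5 crosses a dashed line.

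**Figure D2:**
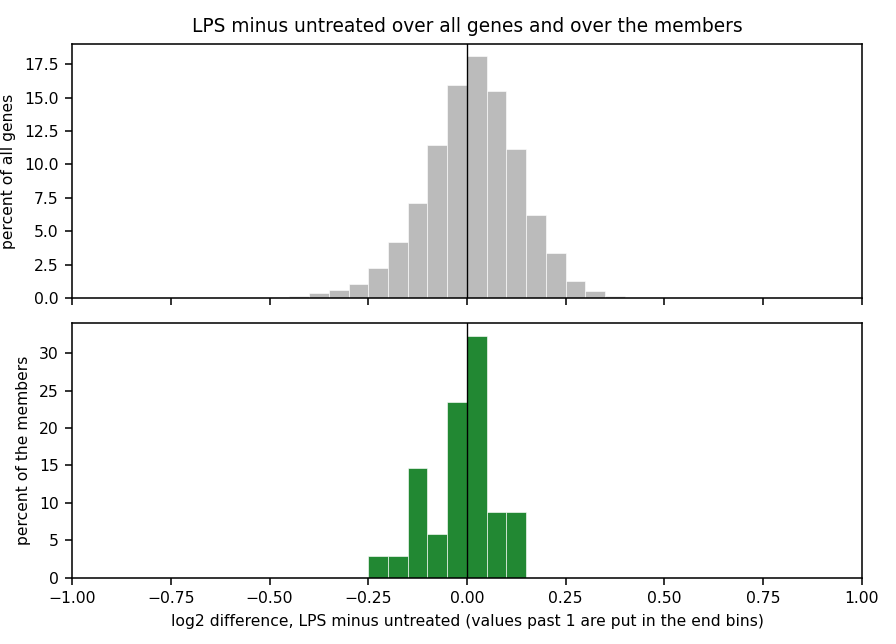
Distribution of the log2 difference between LPS-treated and untreated cells over all 19775 genes (top) and over the 34 members (bottom), as percent of genes per bin. The members lie between -0.21 and 0.15, around the centre of the distribution of all genes.

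Of the 3 G1 cyclins and their activating phosphatase, 2 genes were above 0 and 2 below, and the groups overlapped for each. CCND1, cyclin D1, which binds CDK4 and CDK6 early in G1, was at 12.92 and 13.05 in untreated and 12.87 and 13.00 in treated cells. Its ratio of 0.97 had an interval of 0.85 to 1.11. The second CCND1 probe set was at 12.30 and 12.01, then 12.43 and 12.03, a difference of 0.08 in the other direction. Neither probe set separated the groups.

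CCNE1, cyclin E1, which binds CDK2 at the G1/S boundary, was at 9.97 and 10.14 in untreated and 10.13 and 10.10 in treated cells. The treated arrays lay inside the untreated range. The ratio was 1.05 (0.88 to 1.24). CDC25A, the phosphatase that removes inhibitory phosphates from CDK2, was at 9.85 and 9.97, then 9.78 and 10.10, a ratio of 1.02 (0.83 to 1.27). One of its dimmer probe sets stood at 9.08 and 8.32 in untreated and 9.04 and 8.00 in treated cells, so that the arrays of 1 group were farther apart than the groups.

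CCNE2, cyclin E2, the second partner of CDK2, had the lowest difference of the 34 genes. Its log2 level was 10.23 and 10.01 on the untreated arrays and 10.03 and 9.79 on the treated arrays. LPS 1 lay just above untreated 2, and the groups overlapped. Group means were 10.12 ± 0.15 and 9.91 ± 0.17 (SD, n = 2), a difference of -0.21 ± 0.13 (SE), a ratio of 0.86 with an interval of 0.70 to 1.06 (limma, adjusted p = 1). LPS 1 differed from untreated 1 by -0.20, and LPS 2 from untreated 2 by -0.22. Its dimmer probe set, not above the median over genes on every array, was at 7.75 and 7.44, then 7.40 and 7.17, a difference of -0.31 without overlap (limma, adjusted p = 1). Cyclin E2 was below 0 on both probe sets and cyclin E1 above 0 on both (0.06 and 0.14), with all intervals including 0 and no test of the difference between the paralogs.

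Of the 3 E2F transcription factors, E2F1 and E2F2 had differences of 0.00, and E2F3 was below 0. E2F1, an activator of replication genes, was at 9.14 and 9.37 in untreated cells and at 9.14 and 9.38 in treated cells. Those arrays differed by number and hardly by treatment, and the ratio was 1.00 (0.80 to 1.25). E2F2, a close relative, was at 8.09 and 8.31 and then 8.22 and 8.18, a ratio of 1.00 (0.82 to 1.22). E2F3, the third activator, was at 10.93 and 10.73 in untreated and 10.81 and 10.60 in treated cells. Its difference was -0.12 in both same-numbered pairs, and its ratio was 0.92 (0.76 to 1.11). The other E2F3 probe set differed by -0.05.

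The origin licensing genes, which encode the loaders and the subunits of the MCM2-7 helicase, had differences on both sides of 0. Of the 8 genes, 5 were above 0 and 3 below, with differences from -0.10 to 0.10. MCM2 was at 10.83 and 11.07, then 10.93 and 11.02, and MCM5 at 9.83 and 10.11, then 9.91 and 10.05. For both subunits the treated arrays fell inside the untreated range, and the ratios were 1.02 (0.85 to 1.22) and 1.01 (0.82 to 1.24). MCM4 (1.01, 0.85 to 1.21) and MCM6 (0.98, 0.86 to 1.13) were as near to 1.

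MCM7 had a difference of 0.10 ± 0.13 (SE), from 10.11 and 10.36 in untreated and 10.24 and 10.42 in treated cells, or 10.23 ± 0.18 against 10.33 ± 0.13 (SD, n = 2). Its ratio was 1.07 (0.87 to 1.31; limma, adjusted p = 1). MCM3 was at 10.51 and 10.61, then 10.58 and 10.66, or 10.56 ± 0.07 against 10.62 ± 0.05 (SD, n = 2). Its difference of 0.06 ± 0.10 (SE) gave a ratio of 1.04 (0.89 to 1.22; limma, adjusted p = 1). In both genes the groups overlapped.

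CDC6, the ATPase that recruits the helicase to origins, was at 10.58 and 10.72 in untreated and 10.61 and 10.64 in treated cells, a ratio of 0.98 (0.84 to 1.16). CDT1, its partner in helicase loading, was at 9.73 and 9.74 and then 9.60 and 9.66. Both treated arrays of CDT1 lay below both untreated arrays, and the ratio was 0.93 (0.79 to 1.10). The standing CDT1 probe set ends in _x_at, which marks probes that can share signal with other genes. Its other probe set was at 7.70 and 8.02, then 7.69 and 7.98, with overlap.

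The 6 genes that turn the loaded helicase on had differences of -0.08 to 0.04, 4 above 0 and 2 below, and in none did the arrays separate by group. CDC7, the kinase that phosphorylates MCM subunits, was at 8.98 and 8.86 in untreated and 8.97 and 8.84 in treated cells. CDC45, a helicase cofactor, was at 8.63 and 8.73, then 8.70 and 8.74. MCM10, which helps the active helicase to form, was at 9.57 and 9.49, then 9.57 and 9.34. The ratios were 0.99, 1.03 and 0.95.

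GINS1, GINS2 and GINS3 encode subunits of the GINS complex, which joins CDC45 and the MCM ring. GINS1 was at 11.30 and 11.21, then 11.28 and 11.24, and GINS2 at 9.60 and 9.57, then 9.60 and 9.58. GINS3 was at 8.86 and 8.85 in untreated and 8.84 and 8.87 in treated cells. All 3 ratios were 1.00, with intervals of 0.87 to 1.16, 0.85 to 1.18 and 0.84 to 1.19. A second GINS3 probe set went another way, at 8.15 and 7.95 in untreated and 7.92 and 7.58 in treated cells, a difference of -0.30 without overlap (limma, adjusted p = 1). It was also above the median over genes on every array. The GINS3 estimates differed, but both intervals include 0, and the difference between the probe sets was not tested.

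Among the synthesis genes, PCNA, the sliding clamp that holds polymerases on DNA, was at 13.03 and 12.94 in untreated and 13.04 and 12.91 in treated cells. Its arrays overlapped, and its ratio was 0.99 (0.88 to 1.13). POLA1, the catalytic subunit of the polymerase that starts new strands, was at 9.04 and 9.09, then 9.05 and 9.04. PRIM1, the primase that lays down their RNA primers, was at 10.75 and 10.57, then 10.71 and 10.60. Neither gene separated the groups, with ratios of 0.98 (0.83 to 1.17) and 1.00 (0.84 to 1.18).

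POLE2, an accessory subunit of the leading-strand polymerase, was at 9.70 and 9.74 in untreated and 9.64 and 9.56 in treated cells. Both treated arrays were lower. Means were 9.72 ± 0.03 and 9.60 ± 0.05 (SD, n = 2), a difference of -0.12 ± 0.10 (SE) and a ratio of 0.92 (0.78 to 1.08; limma, adjusted p = 1). A single probe set measured POLE2.

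The clamp loader subunits RFC3, RFC4 and RFC5, which open PCNA and place it around DNA, had differences of -0.12, 0.12 and 0.15, all with intervals that include 0. RFC3 was at 11.63 and 11.57 in untreated and 11.46 and 11.50 in treated cells, or 11.60 ± 0.04 against 11.48 ± 0.03 (SD, n = 2). Its difference of -0.12 ± 0.08 (SE) gave a ratio of 0.92 (0.80 to 1.06; limma, adjusted p = 1), and its other probe sets differed by -0.16 and -0.07. RFC4 was at 10.82 and 10.64, then 10.94 and 10.77, or 10.73 ± 0.13 against 10.85 ± 0.12 (SD, n = 2). Its difference of 0.12 ± 0.11 (SE) gave a ratio of 1.09 (0.91 to 1.30; limma, adjusted p = 1). RFC3 separated the groups, RFC4 did not, and the difference between the subunits was not tested.

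RFC5 had the widest spread of the list. Its standing probe set was at 10.45 on untreated 1 and 9.92 on untreated 2, and at 10.76 on LPS 1 and 9.91 on LPS 2. The arrays numbered 1 were high and those numbered 2 low, in both groups. The difference was 0.31 in the first pair and -0.01 in the second, and the ratio was 1.11 (0.71 to 1.73). Without LPS replicate 2 the difference was 0.58, and without LPS replicate 1 it was -0.28. The other RFC5 probe sets were also higher on the arrays numbered 1 in both groups, but by less. The brighter was at 9.97 and 9.85, then 9.73 and 9.69, and the dimmer at 9.11 and 9.02, then 8.95 and 8.89. They differed by -0.20 and -0.14 without overlap (limma, adjusted p = 1 for each). The sign of the RFC5 estimate depended on the probe set. All of their intervals include 0, and the difference between the probe sets was not tested.

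FEN1, the nuclease that trims flaps between lagging-strand fragments, was at 9.92 and 9.91 in untreated and 10.05 and 9.85 in treated cells. The treated arrays lay on either side of the untreated arrays, and the ratio was 1.03 (0.86 to 1.23). LIG1, the ligase that seals those fragments, was at 9.78 and 9.98, then 9.97 and 10.02, or 9.88 ± 0.15 against 9.99 ± 0.04 (SD, n = 2). Its difference of 0.11 ± 0.11 (SE) gave a ratio of 1.08 (0.90 to 1.30; limma, adjusted p = 1), with a difference of 0.19 in the first pair and 0.04 in the second.

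The genes for nucleotide supply, base repair and histone mRNA were all below 0, at -0.16 to -0.03. RRM2, the regulated subunit of ribonucleotide reductase, which makes deoxynucleotides, was at 12.54 and 12.45 in untreated and 12.34 and 12.34 in treated cells. Both treated arrays were lower, and means were 12.49 ± 0.06 and 12.34 ± 0.00 (SD, n = 2). Its difference of -0.16 ± 0.08 (SE), a ratio of 0.90 (0.79 to 1.02), had the largest statistic of the list (limma, adjusted p = 1). Its second probe set, also bright, was at 11.92 and 11.82 in untreated and 11.93 and 11.83 in treated cells, a difference of 0.02. The RRM2 estimates had opposite signs, but both intervals include 0, and the difference between the probe sets was not tested.

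RRM1, the large subunit of the same enzyme, was at 11.90 and 11.86 in untreated and 11.87 and 11.84 in treated cells, a ratio of 0.98 (0.86 to 1.12). UNG, the glycosylase that removes uracil from DNA, was at 9.28 and 9.28 and then 9.23 and 9.14, a ratio of 0.93 (0.79 to 1.11). SLBP, which binds the stem-loop of replication-dependent histone mRNAs, was at 11.87 and 11.79, then 11.77 and 11.70, a ratio of 0.93 (0.81 to 1.07). UNG and SLBP were lower on both treated arrays, each on 1 probe set ending in _s_at, and neither passed the test (limma, adjusted p = 1 for each).

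**Figure D3:**
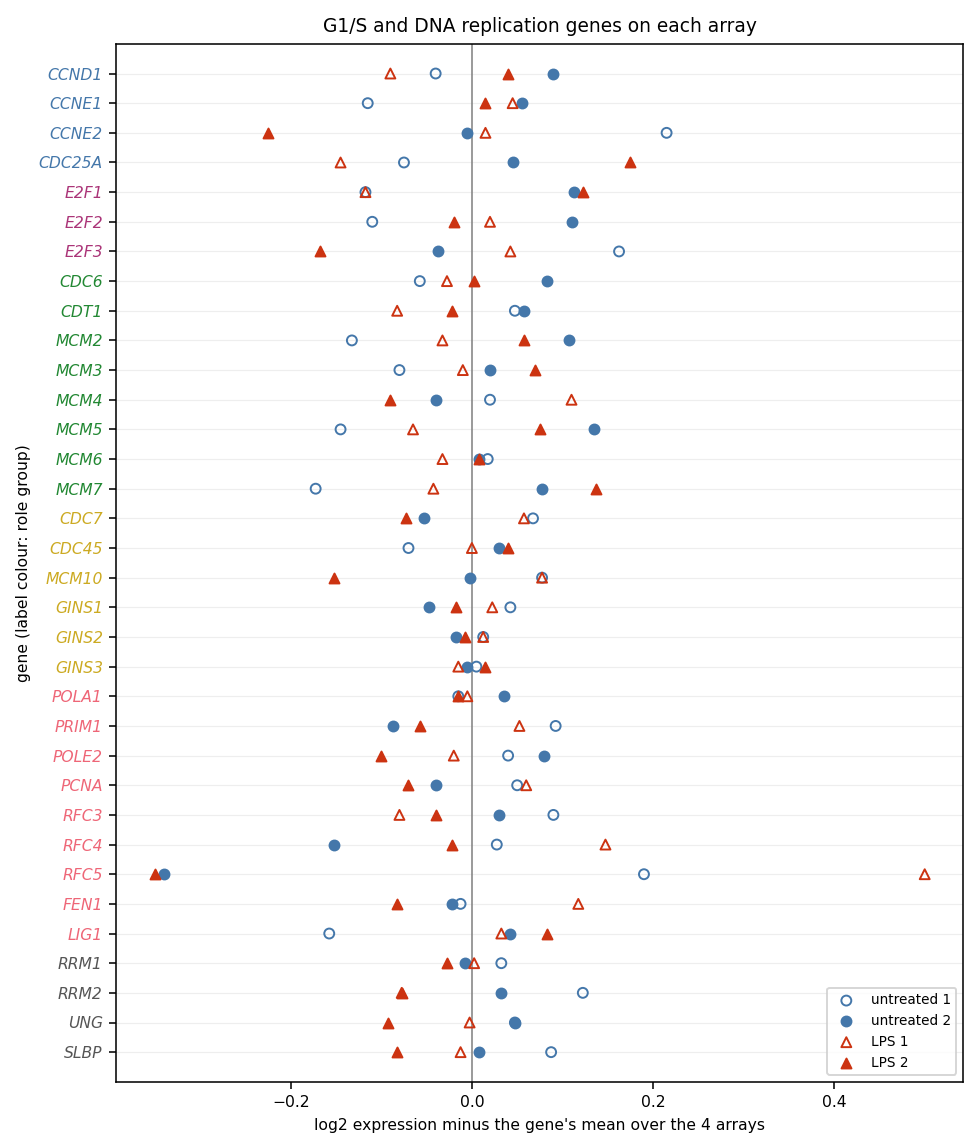
Log2 expression of each of the 34 genes on the 4 arrays, drawn as the distance from the gene's own mean (circles untreated, triangles LPS, open symbols replicate 1, filled symbols replicate 2). Nearly all points lie within 0.2 of the mean, except RFC5, whose open symbols are far to the right of its filled ones, and CCNE2.

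Probe sets gave a further look at the same RNA, without adding arrays. The 34 genes had 64 probe sets, with 13 genes on 1 and 21 on more than 1. Of the 30 additional probe sets, 20 had the sign of the standing one and 10 the opposite sign, and 10 did not lie above the median over genes on every array. Among these 30, the groups did not overlap in either direction for a few. A dim CCNE1 probe set (6.07 and 6.13, then 6.21 and 6.28) and an MCM4 probe set (9.61 and 9.60, then 9.62 and 9.63) were higher with LPS. Those of CCNE2, GINS3 and RFC5 described above were lower. The share without overlap over all probe sets was not computed. With every probe set as its own test, 0 of 64 had an unadjusted limma p under 0.05, where 2.68% of 41091 did, and differences ran from -0.31 to 0.15. Among genes with more than 1 probe set, CCNE2, RFC3, E2F3, CDC6, CDT1, MCM6, MCM10 and RRM1 were below 0 on every one. CCNE1, MCM5, MCM7, FEN1, E2F1 and E2F2 were at 0.00 or above on every one.

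**Figure D4:**
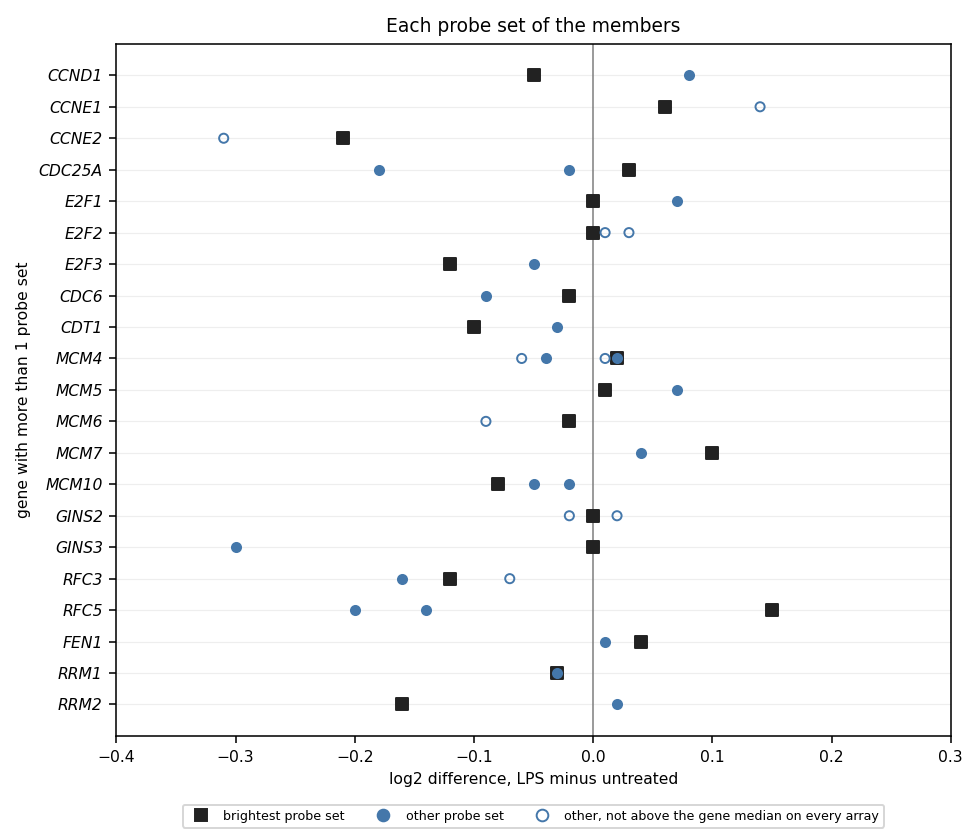
Log2 difference between LPS-treated and untreated cells for each probe set of the 21 genes with more than 1 (squares the brightest probe set, circles the others, open circles those not above the median over genes on every array). RFC5, GINS3, CDC25A and RRM2 show probe sets that lie apart, while those of GINS2, RRM1 and FEN1 lie close together.

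In at least 1 group the arrays were farther apart than the group means for 28 of 34 members (82.4%), as for 81.1% of all genes. The gap between replicate 2 and replicate 1 had the same sign in untreated and in treated cells for 26 of 34 members (76.5%), against 65.6% of all genes. It did so for 70.6% of genes above the median on every array and for 76.5% of the other pathway genes described below. In 11 members both gaps were above 0, among them E2F1 (0.24 and 0.24), MCM5 (0.28 and 0.14), MCM7 (0.26 and 0.19) and CDC25A (0.12 and 0.32). In 15 members both were below 0, among them RFC5 (-0.53 and -0.86), CCNE2 (-0.21 and -0.24), E2F3 (-0.20 and -0.21) and RFC4 (-0.19 and -0.17). These are gaps of the standing probe sets, and other probe sets of a gene did not always share their sign. A dimmer CDC25A probe set was at 9.08 and 8.32 in untreated and 9.04 and 8.00 in treated cells, the opposite sign. The second E2F1 probe set, at 7.69 and 7.83, then 7.66 and 8.00, kept the sign. The 18S ribosomal RNA control probe sets also differed by number, at 10.07 and 9.89 on the arrays numbered 1 and 8.12 and 7.98 on those numbered 2, and their part in these gaps was not tested. The difference between treated and untreated cells had the same sign in both same-numbered pairs for 18 of 34 members, beside 11069 of all 19775 genes. Its median over the members was -0.0025 in the first pair and -0.041 in the second. Over all genes the medians were 0.0048 and 0.024, and over genes above the median on every array 0.0046 and 0.00022.

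**Figure D5:**
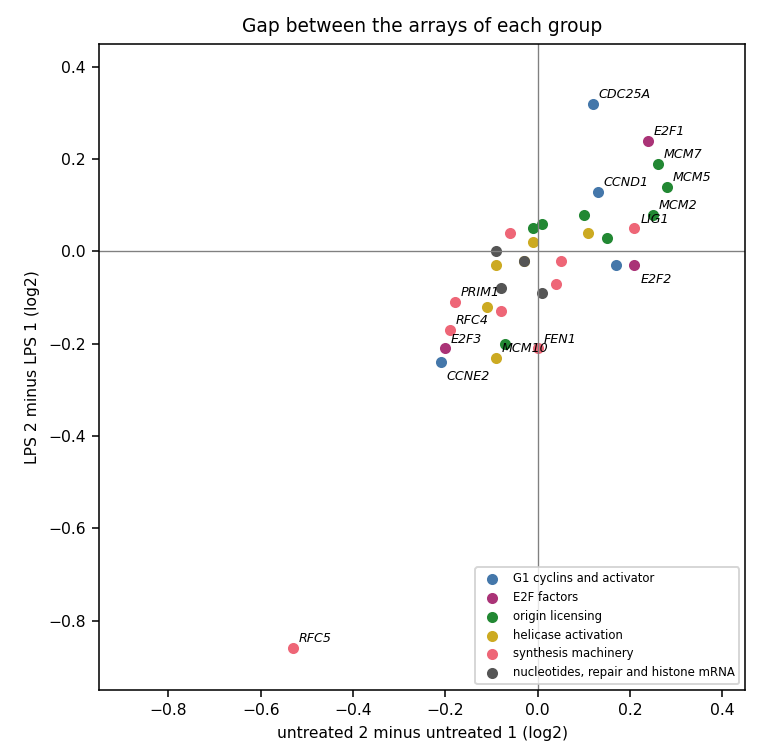
Gap between the arrays of each group for the 34 genes: untreated 2 minus untreated 1 (horizontal, log2) against LPS 2 minus LPS 1 (vertical, log2), coloured by role. Points fall mostly in the lower left and upper right, where both gaps have 1 sign, with RFC5 far from the others at -0.53 and -0.86.

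The members' differences were also set beside the promoter motif, without a test. The median difference was 2.5e-06 over the 13 members with an E2F-type motif, with a range of -0.12 to 0.11, and -0.0046 over the 17 without, with a range of -0.16 to 0.15. MCM6, with 4 copies, had a ratio of 0.98, and E2F1, with 2, had 1.00.

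Other genes of the pathway were listed by function. Of 70 listed, 68 were measured, and 0 were called higher or lower (limma). At an unadjusted limma p under 0.05 there were 0 higher and 1 lower, or 1.47%, beside 2.83% of all genes. Their median difference was -0.022, with 30 above 0 and 38 below, and the treated and untreated arrays did not overlap for 9 higher and 9 lower (13.2% each), beside 17.9% and 11.7% of all genes.

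The 1 gene below that p was PRIM2, the large primase subunit and the partner of PRIM1. It was at 8.47 and 8.36 in untreated and 7.94 and 8.08 in treated cells, a ratio of 0.76 with an interval of 0.62 to 0.92 (limma, adjusted p = 1), on 1 probe set. Both treated arrays were lower, whereas PRIM1 overlapped. After PRIM2 the lowest statistics were those of RB1, the retinoblastoma gene, at -0.26, the thymidine kinase gene TK1 at -0.18 and the kinase gene CDK2, the partner of the E cyclins, at -0.20. CDK2 was at 9.02 and 9.03, then 8.79 and 8.87, and its other probe sets differed by -0.27 and -0.16. The second TK1 probe set differed by -0.14, and the dim second RB1 probe set by 0.05.

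On the other side stood CDKN1C at 0.20, the CDK inhibitor gene CDKN1A at 0.15, the chromatin assembly gene CHAF1B at 0.19 and FBXW7, whose product targets cyclin E for degradation, at 0.20. CDKN1A was at 11.73 and 11.87 in untreated and 11.98 and 11.92 in treated cells, without overlap and on 1 probe set (limma, adjusted p = 1). CDKN1C was dim, and its other probe sets ran from -0.22 to 0.07. The other FBXW7 probe sets ran from -0.36 to 0.10. None of these genes passed the test.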

How the data were processed

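Total RNA of 4 AGS cultures was measured on single-channel Affymetrix arrays. Each array has 54675 probe sets, for which the authors deposited log2 values. MAS5 and RMA appear in the submitters' processing notes, with no role or version, and further settings are not given in the sources used here. The values were used without further normalization. Array values can understate folds, of dim probe sets above all. The number of arrays limits the precision.

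Probe sets with 1 gene symbol in the platform annotation were 41097, those with several 1801 and those with none 11777. The gene number of 41043 was found in a current gene table, and 0 symbols changed. The brightest probe set over the 4 arrays stood for each of 19775 genes. The groups were compared by a two-sided limma fit (3.58.1, R 4.3.3) with an intensity trend and without covariates. Adjusted p-values are Benjamini-Hochberg values over all genes, with a threshold of 0.05. The fit was tested on simulated data with independent noise on each array. Those data held no gap shared by replicate number, so they do not cover that feature of these arrays. An exact permutation test of 1 gene with 2 arrays against 2 cannot give a p under 0.33. Some listed genes are not reported here. As alternatives, the fit was repeated with each array left out, with the replicate number as a block, without the trend, on every probe set separately, on the mean of a gene's probe sets, after leaving out _x_at and _s_at probe sets, after quantile normalization, and over genes above median expression alone.

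The members and lists were chosen with earlier results of these data known. Genes given full statistics are the 4 members, and 4 other pathway genes, with the largest moderated statistic in each direction. Other members are given by array, and the probe sets and the MCM6 and E2F1 promoters singled out were chosen after their values were seen. Figures were drawn with matplotlib 3.10.9.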

Additional observations from a re-analysis of the deposited data

How the results depend on the processing

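No member was called under any of the alternatives run (smallest adjusted p = 0.52, limma, RFC5 without LPS replicate 2). Of the 34 members, 13 did not change sign under any alternative that gave the gene 1 value, among them CCNE2 (-0.33 to -0.09), RRM2 (-0.20 to -0.07), RFC3 (-0.15 to -0.09), POLE2 (-0.16 to -0.09), RFC4 (0.03 to 0.21) and LIG1 (0.01 to 0.22), and 21 did. MCM6 is counted with the 13 and reached 0.00. Probe sets tested separately are not in that count, and there the second RRM2 probe set was at 0.02. Of those 13, E2F3, CDT1, RRM1, UNG and SLBP gave no value without _x_at and _s_at probe sets. Among the 21, MCM2, MCM7, CDC45 and FEN1 gave none either. With 1 array left out, the log2 differences of those 21 ran as follows: CCND1 -0.11 to 0.02, CCNE1 -0.02 to 0.15, CDC25A -0.13 to 0.19, E2F1 -0.12 to 0.12, E2F2 -0.11 to 0.11, CDC6 -0.10 to 0.05, MCM2 -0.10 to 0.15, MCM4 -0.08 to 0.12, MCM5 -0.13 to 0.16, MCM7 -0.03 to 0.22, CDC7 -0.08 to 0.05, CDC45 -0.01 to 0.09, MCM10 -0.19 to 0.04, GINS1 -0.04 to 0.05, GINS2 -0.01 to 0.02, GINS3 -0.01 to 0.01, POLA1 -0.05 to 0.00, PRIM1 -0.09 to 0.08, PCNA -0.07 to 0.06, RFC5 -0.28 to 0.58, FEN1 -0.07 to 0.14. With the mean of all probe sets the difference turned to 0.02 for CCND1, -0.06 for CDC25A, -0.01 for MCM4, -0.15 for GINS3 and -0.06 for RFC5. Without _x_at and _s_at probe sets, where 25 members remained measured, GINS3 turned to -0.30. The median over the members lay between -0.025 and 0.0051 throughout. Leaving out 1 array gave 0 to 2 genes called higher and 0 to 14 called lower over all genes, with calls only without LPS replicate 2. It gave 0 to 1 members at an unadjusted p under 0.05, CCNE2 without LPS replicate 1 and RFC5 without LPS replicate 2, beside 8.02% and 6.47% of all genes. It gave 17 to 23 members without overlap, where 56.6% to 72.5% of all genes had none. The median over the other pathway genes was -0.011 with quantile normalization and -0.048 without _x_at and _s_at probe sets, and ran from -0.028 to -0.0057 with 1 array left out, against -0.022.

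Whether arrays of 1 number came from 1 experiment is not in the labels. The gaps between replicate 2 and 1 in untreated and treated cells were correlated across genes (r = 0.439 over all genes, 0.831 over the 34 members, 0.745 without RFC5), where the points share arrays and genes are not independent. With the replicate number as a block, 2 members had an unadjusted p under 0.05, CCNE2 and RRM2 (limma, adjusted p = 0.64 for each), beside 7.52% of all genes, and 0 members were called. The block changed no call.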

Other observations

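Genes of G2 phase and mitosis, which follow replication in the cycle, were bright as well: all 11 listed lay above the median over genes on every array. Their median difference was 0.065, with 8 above 0 and 3 below, from -0.14 to 0.10. At an unadjusted limma p under 0.05 there were 0, beside 2.83% of all genes, and 0 were called, beside 0% of all genes. MKI67, which encodes the proliferation antigen Ki-67, was at 11.52 and 11.49 in untreated and 11.54 and 11.64 in treated cells. TOP2A, the topoisomerase that untangles replicated chromosomes, was at 12.45 and 12.19, then 12.71 and 12.13, with the arrays numbered 1 higher in both groups. CDK1, the mitotic kinase gene, was at 11.67 and 11.47, then 11.49 and 11.37, a difference of -0.14. The groups overlapped for TOP2A and CDK1 and did not for MKI67, whose brightest of 4 probe sets differed by 0.09. Its treated arrays were 0.10 apart. Of the 11 genes, 2 were higher without overlap (18.2%) and 0 lower, beside 17.9% and 11.7% of all genes.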
